A study of Homo sapiens with 32 samples.

Results

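The genes described here encode core components of the spliceosome: 49 protein-coding genes, of the 35238 genes in the expression table. They were chosen by name as proteins of the small nuclear ribonucleoproteins (snRNPs) and of the catalytic core, and the rule used no threshold on measured values, although the list was drawn up with earlier results of these data known. All 49 were found in the table. By role they comprise 7 genes of the Sm ring, 7 of the U1 snRNP and its partners, 9 of the U2 snRNP, 3 that read the 3′ splice site, 12 of the U4/U6.U5 tri-snRNP and the B complex, 6 of the PRPF19 complex (NTC) and related proteins, and 5 DEAH helicases and second-step factors.

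The spliceosome removes introns from pre-mRNA. U1 and its partners pair with the 5′ splice site, U2 with SF3A and SF3B holds the branch point, U2AF reads the 3′ splice site, and the tri-snRNP then joins and is remodelled by helicases, with the NTC, into the active enzyme. CDC-like kinases (CLKs) phosphorylate serine/arginine-rich splicing factors and so act on how splice sites are chosen. Many splicing factor genes carry regulated exons or retained introns, through which their own mRNA level can change.

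Total RNA was sequenced from 4 human endometrial cancer cell lines, each kept for 24 h with vehicle (0.1% DMSO), paclitaxel (a taxane that stabilises microtubules), the CLK inhibitor SM08502, or both drugs (the combination). Each drug was given at the line's own 50% inhibitory concentration. Ishikawa, labelled wild type for CTNNB1 (the gene of β-catenin), received 11 nM paclitaxel and 80 nM SM08502. The CTNNB1-mutated lines were Ishikawa-S33Y (6 nM and 85 nM), SNGM (11.7 nM and 350.7 nM) and HEC265 (5.6 nM and 149 nM). Whether Ishikawa-S33Y is a single clone is not given in the sources used here. Line, dose and, for Ishikawa, RNA input (350 ng against 500 ng for the other lines) therefore cannot be told apart in comparisons between lines. The 16 groups held 2 samples each, plated in duplicate per the labels, so p-values measure only the spread between these duplicates, which may be technical.

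Depth was 13026400 to 34127623 counted reads in 30 libraries, and 2991041 and 1607038 reads in the second combination libraries of Ishikawa-S33Y and SNGM. The epithelial markers EPCAM (129 to 320 CPM, counts scaled to a library total of 1000000) and CDH1 (119 to 574 CPM) were present in all 32 libraries. Over the 32 libraries, the summed level of 7 epithelial markers was 956 to 3495 CPM, that of 6 fibroblast or stroma markers 3.93 to 1165, that of 4 leukocyte markers 4.35 to 52.0 and that of 3 endothelial markers 1.15 to 10.6. COL1A1 ranged from 0 to 1158 CPM and CD68 from 3.30 to 50.4 CPM, and LUM, PDGFRB, CD3E and CDH5 stayed below 1 CPM. The 2 libraries of a group differed most in Ishikawa on paclitaxel and on SM08502, where the root mean square difference over the 49 genes was 0.67 and 0.50 on the log2 scale, against 0.08 to 0.49 in the other 14 groups. In these 2 groups a score of transcript length (50 genes with long transcripts, averaged in log2, less 78 ribosomal protein genes averaged likewise) also differed within the pair, at −1.80 and −3.42 on paclitaxel and −2.48 and −3.35 on SM08502. Its part in the Ishikawa values below was not tested beyond the fits given with the closing limits. Every one of the 49 genes was counted in every library and passed the filter on low values. Together they took 0.42% to 0.69% of the counted reads.

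Promoter windows of 4 genes whose mRNA moved with SM08502 are shown to put the opposite responses beside their upstream sequence. PLRG1 and LUC7L3 were higher with the drug, and PRPF8 and U2AF2 lower. Each window holds the 250 bases before the RefSeq start on GRCh38.p14, read 5′ to 3′ on the gene's strand, and capitals mark matches to the ETS core (CCGGAA), the GC box (GGGCGG), the CCAAT box (CCAAT), or the TATA box (TATAAA), on either strand. The windows lie at chr4:154550401-154550650 (PLRG1, minus strand), chr17:50719353-50719602 (LUC7L3, plus), chr17:1684868-1685117 (PRPF8, minus) and chr19:55654785-55655034 (U2AF2, plus).
PLRG1: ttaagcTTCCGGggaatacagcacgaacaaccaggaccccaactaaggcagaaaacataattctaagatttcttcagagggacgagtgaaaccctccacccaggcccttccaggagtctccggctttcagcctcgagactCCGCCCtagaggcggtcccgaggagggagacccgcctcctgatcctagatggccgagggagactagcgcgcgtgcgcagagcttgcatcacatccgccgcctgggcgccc
LUC7L3: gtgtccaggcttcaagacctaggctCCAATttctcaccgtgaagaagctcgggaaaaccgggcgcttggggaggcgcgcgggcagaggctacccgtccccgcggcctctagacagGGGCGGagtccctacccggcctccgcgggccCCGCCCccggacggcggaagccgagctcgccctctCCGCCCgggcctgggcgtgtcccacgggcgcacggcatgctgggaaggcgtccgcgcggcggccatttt
PRPF8: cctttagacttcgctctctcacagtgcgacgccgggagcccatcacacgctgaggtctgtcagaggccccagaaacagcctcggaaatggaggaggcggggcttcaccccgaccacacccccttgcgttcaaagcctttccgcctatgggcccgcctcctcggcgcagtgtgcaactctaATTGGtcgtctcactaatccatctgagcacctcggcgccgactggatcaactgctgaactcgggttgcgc
U2AF2: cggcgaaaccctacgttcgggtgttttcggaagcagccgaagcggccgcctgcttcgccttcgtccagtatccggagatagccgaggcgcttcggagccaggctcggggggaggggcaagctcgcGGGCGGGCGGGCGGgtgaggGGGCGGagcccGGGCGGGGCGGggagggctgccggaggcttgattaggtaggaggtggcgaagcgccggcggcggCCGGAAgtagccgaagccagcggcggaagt
The PLRG1 window held 1 ETS core and 1 GC box, that of LUC7L3 held 3 GC boxes and 1 CCAAT box, that of PRPF8 held 1 CCAAT box, and that of U2AF2 held a run of GC boxes with 1 ETS core close to the start. Of the 49 genes, 44 had a window in the RefSeq table. An ETS core was found in 26 of the 44 (59.1%), against 14.8% of all 27305 windows and 22.7% of the 11802 windows of tested genes. A GC box was found in 56.8% of the 44 windows, against 64.4% of tested genes, and a CCAAT box in 34.1%, against 34.5%. TATAAA was found in 1 window. These matches describe letters only and say nothing of binding.

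CLK1 and CLK4, whose transcripts are known to respond to loss of CLK activity, served as a check of drug action. CLK1 rose by 1.53 (SE 0.07) and CLK4 by 1.46 (SE 0.08) with SM08502 in the mean of the 4 lines, and both were called in each line. For CLK1, vehicle libraries held 15.1 to 28.5 CPM and SM08502 libraries 50.7 to 95.2 CPM, with no overlap.

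SM08502 moved core spliceosome mRNAs mostly upward, by modest amounts, with a few deep falls. In the equal-weight mean of the 4 lines, 30 of the 49 genes were called (limma, Benjamini-Hochberg adjusted p under 0.05 over 17011 genes): 26 rose and 4 fell. Among all genes tested, 38.5% were called in this comparison, and among the 8491 genes with a mean level at or above that of the lowest of the 49 (SNRPF), 47.4%. The members' share was 61.2%. Their median change was 0.21 on the log2(CPM + 1) scale, on which all changes below are given, against 0.05 over all genes tested. A rise with SM08502 was called in 22.6% of all genes and a fall in 15.8%. The count held between 27 and 35 under every alternative run.

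**Figure D1:**
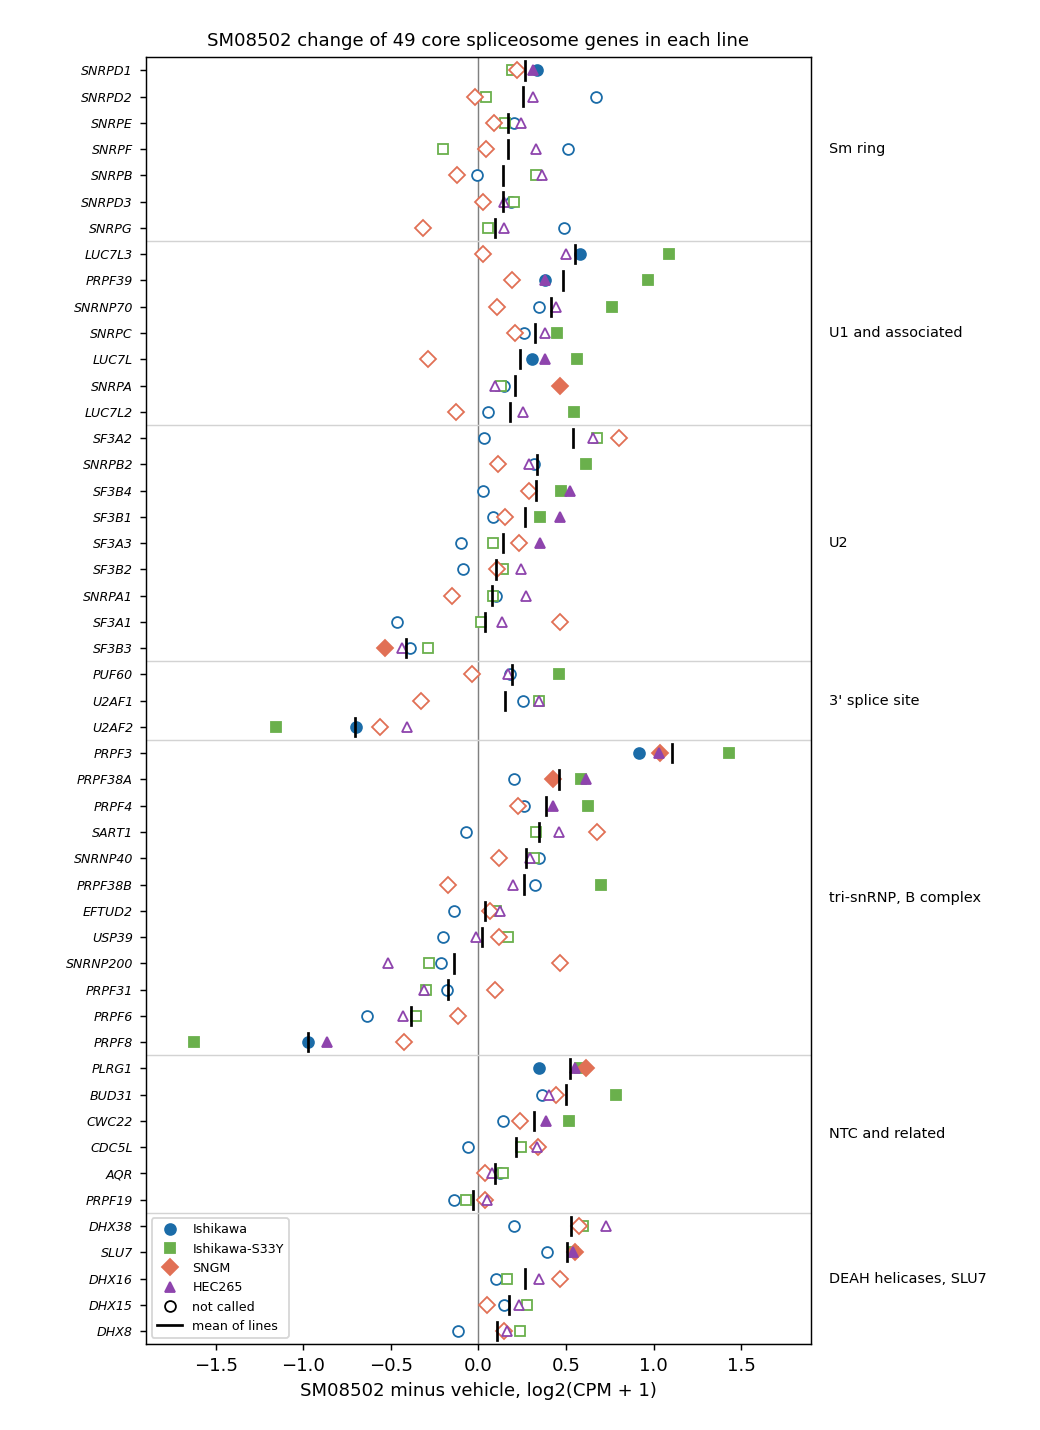
SM08502 minus vehicle for each of the 49 genes (rows, grouped by role) in the 4 lines, in log2(CPM + 1). Filled symbols passed the test, open symbols did not, and the black bar is the mean of the lines, from −0.97 for PRPF8 to 1.10 for PRPF3.

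By line, Ishikawa-S33Y had 20 called genes, 18 higher and 2 lower, where 18.5% of all genes were called higher and 10.6% lower. HEC265 had 13, 12 higher and 1 lower, against 9.27% and 5.39% of all genes. Ishikawa had 8, 6 higher and 2 lower, against 6.5% and 8.68%. SNGM had 6, 5 higher and 1 lower, against 3.8% and 4.06%. In either direction the shares of all genes called were 29.1% for Ishikawa-S33Y, 14.7% for HEC265, 15.2% for Ishikawa and 7.86% for SNGM, and among genes as high as the 49 they were 35.7%, 20.8%, 17.9% and 10.8%. The shares of the 49, 16.3% in Ishikawa, 12.2% in SNGM, 40.8% in Ishikawa-S33Y and 26.5% in HEC265, lay near those of genes as high. That background reaches down to the lowest of the 49 and is not matched to their levels. Re-centring each library on its median changed the split in HEC265 to 7 higher and 4 lower and that in SNGM to 5 and 2. Marker sums also moved with SM08502. In Ishikawa-S33Y the epithelial sum went from 3495 and 3427 CPM on vehicle to 2005 and 1786, and in HEC265 the leukocyte sum went from 9.88 and 9.30 to 35.8 and 39.7, of which CD68 made up 8.99 and 8.42 on vehicle and 34.3 and 38.7 on SM08502. The leukocyte sum of both SM08502 libraries was above that of both vehicle libraries in every line. Their part in the counts was not tested. The counts rest on few libraries. In Ishikawa the count went to 4 or 3 without vehicle replicate 1 or 2, to 2 without SM08502 replicate 2, to 15 without SM08502 replicate 1, and to 16 without either paclitaxel library. In HEC265 it went to 3 or 5 without vehicle replicate 1 or 2 and to 4 or 3 without SM08502 replicate 1 or 2. In SNGM it went to 3 without vehicle replicate 2 or without SM08502 replicate 1, and to 10 without either Ishikawa paclitaxel library. No gene was called higher in one line and lower in another. PRPF3 and PLRG1 were called higher in all 4 lines, 24 of the 49 had a positive change in every line, and PRPF6, PRPF8, SF3B3 and U2AF2 had a negative change in every line. How many of all genes tested share these patterns was not counted, so they are not set apart from the background. The median change of all genes was 0.11 in Ishikawa-S33Y, 0.07 in HEC265, 0.002 in Ishikawa and 0 in SNGM.

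The Sm ring, the ring of proteins laid around the snRNAs of U1, U2, U4 and U5, had few calls. Of its 7 genes 1, SNRPD1, was called in the mean of the lines, with a rise of 0.26 (SE 0.05, limma adjusted p = 0.000168). In that mean 38.5% of all genes tested were called, 22.6% higher and 15.8% lower, and 47.4% of those as high as the 49. The role groups, of 3 to 12 genes, were not tested against these shares. SNRPD1 stood at 79.6 and 75.8 CPM on vehicle and 90.4 and 106 on SM08502 in Ishikawa, and at 80.4 and 88.1 against 103 and 106 in HEC265, with no overlap and a call in both lines. With all libraries kept, the HEC265 call was lost with median re-centring (limma adjusted p = 0.361), quantile normalization (0.135) and no intensity trend (0.0509). The Ishikawa call was lost with that line fitted alone (0.289). The HEC265 call was lost without any 1 of its vehicle and SM08502 libraries (adjusted p = 0.0636 to 0.279), and the Ishikawa call without vehicle replicate 1 or 2 (0.0622 and 0.148) or SM08502 replicate 2 (0.282), where the change went from 0.33 to 0.22. In Ishikawa-S33Y it went from 63.7 and 60.8 to 72.7 and 70.0 CPM, and in SNGM from 43.2 and 45.4 to 52.1 and 51.4, both without a call. The other 6 had mean changes of 0.09 (SNRPG) to 0.25 (SNRPD2), all positive and none called. With the combination 5 of the 7 were called, all higher, where 49.1% of all genes were called and 29% called higher, SNRPD3 among them at 0.25 (adjusted p = 0.00168). SNRPB, SNRPD2, SNRPE, SNRPF and SNRPG have numbered pseudogenes in the table, so reads could be split between copies. In all, 10 of the 49 have such pseudogenes, among them SNRPC and BUD31.

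All 7 genes of U1 and its partners were called higher in the mean of the lines, where 22.6% of all genes were called higher. The largest were LUC7L3, a zinc finger and RS-domain protein that binds U1, at 0.55 (SE 0.09, adjusted p = 6.18e-05), and PRPF39, a U1-bound repeat protein, at 0.48 (SE 0.05, 5.5e-07). SNRNP70, the U1-70K protein, followed at 0.41 (adjusted p = 0.00874). LUC7L3 in Ishikawa-S33Y went from 49.4 and 49.9 CPM on vehicle to 104 and 110 on SM08502. In SNGM its libraries overlapped, at 38.4 and 47.9 against 51.1 and 37.2 CPM, and the change there was 0.02. LUC7L2 had the smallest mean change, 0.18 (adjusted p = 0.0371), a call lost in 12 of the alternatives, at up to 0.105. LUC7L2 overlaps FMC1 and an FMC1-LUC7L2 readthrough gene, and PRPF39 overlaps FKBP3. The strand of counting is not given in the sources used here, so such reads cannot be told apart.

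U2 and its SF3A and SF3B subcomplexes went both ways. Of 9 genes 5 rose and 1 fell in the mean of lines, where 22.6% of all genes were called higher and 15.8% lower. SF3A2, a subunit of SF3A, rose by 0.54 (SE 0.15, adjusted p = 0.00808), from 103 and 95.1 to 160 and 158 CPM in Ishikawa-S33Y and from 94.6 and 95.7 to 146 and 155 in HEC265. In Ishikawa its SM08502 libraries, at 101 and 56.3 CPM, enclosed the vehicle values of 72.1 and 75.2, and the change of 0.03 went to −0.38 without SM08502 replicate 1. SF3B3, the large scaffold of SF3B, fell by 0.41 (SE 0.08, adjusted p = 0.000224). SF3B3 went from 294 and 291 to 253 and 196 CPM in Ishikawa, from 298 and 297 to 255 and 232 in Ishikawa-S33Y, from 231 and 200 to 139 and 158 in SNGM, and from 407 and 413 to 297 and 309 in HEC265. Every SM08502 library was below both vehicle libraries of its line, although only SNGM was called on its own, and that call was lost without any 1 of its 4 libraries (adjusted p = 0.067 to 0.277). SF3B1, the branch-point subunit mutated in several cancers, rose by 0.26 (adjusted p = 0.00153), SF3B4 by 0.33 and SNRPB2 by 0.33. SF3A1, SF3B2 and SNRPA1 were not called, at 0.04, 0.10 and 0.08.

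At the 3′ splice site, U2AF2, the large U2AF subunit that binds the polypyrimidine tract, fell by 0.71 (SE 0.10, adjusted p = 1.33e-05). U2AF2 stood at 167 and 153 CPM on vehicle and 113 and 85.6 on SM08502 in Ishikawa, at 155 and 162 against 70.3 and 70.7 in Ishikawa-S33Y, at 101 and 102 against 66.6 and 70.7 in SNGM, and at 210 and 213 against 156 and 161 in HEC265. The groups did not overlap in any line. The change was called in Ishikawa-S33Y (−1.16) and Ishikawa (−0.70), the second lost without vehicle replicate 1 or 2 or SM08502 replicate 2 (adjusted p = 0.124, 0.0786 and 0.259). U2AF1, which reads the AG at the intron end, changed by 0.15 and was not called. It has a near-identical annotated copy, so its level is uncertain. PUF60, a U2AF2-like protein, rose by 0.19 (adjusted p = 0.0149).

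The tri-snRNP and B complex held both extremes. Of 12 genes 5 rose and 2 fell in the mean of lines, where 22.6% of all genes were called higher and 15.8% lower. PRPF3, a U4/U6 protein, lies at chr1:150321468-150353233 and had the largest rise of the 49, 1.10 (SE 0.06, adjusted p = 4.65e-11). PRPF3 went from 45.8 and 46.0 CPM to 98.9 and 77.4 in Ishikawa, from 28.6 and 28.8 to 80.8 and 77.4 in Ishikawa-S33Y, from 27.7 and 31.1 to 66.0 and 56.9 in SNGM, and from 32 and 30.8 to 65.2 and 65.0 in HEC265. Vehicle and drug libraries were far apart in each line, and the fitted change was 0.92, 1.43, 1.04 and 1.03 in that order. PRPF4, its U4/U6 partner, rose by 0.38 (adjusted p = 1e-05), and PRPF38A, which joins at B complex activation, by 0.46 (adjusted p = 4.06e-07).

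PRPF8, the U5 scaffold at the catalytic centre, lies at chr17:1650629-1684867 and had the deepest fall, of 0.97 (SE 0.12, adjusted p = 2.87e-06). PRPF8 stood at 459 and 525 CPM on vehicle and 340 and 183 on SM08502 in Ishikawa, at 622 and 653 against 223 and 190 in Ishikawa-S33Y, at 478 and 459 against 311 and 392 in SNGM, and at 1219 and 1188 against 648 and 671 in HEC265. Drug libraries were below vehicle libraries in all 4 lines. The fitted changes were −0.97, −1.62, −0.42 and −0.87, and the one in SNGM was not called (adjusted p = 0.376). The Ishikawa call was lost without vehicle replicate 2 (adjusted p = 0.094) or SM08502 replicate 2 (0.263), and the HEC265 call without any 1 of its vehicle and SM08502 libraries (0.0972 to 0.119). In Ishikawa the paclitaxel libraries of PRPF8 alone spanned 652 and 307 CPM. PRPF6, the bridge between U5 and U4/U6, fell by 0.39 (SE 0.12, adjusted p = 0.0115), with no call in any single line. The U5 proteins SNRNP200, a helicase that unwinds U4/U6, and EFTUD2, a GTPase, were not called, at −0.14 and 0.04. SNRNP200 had a value of 0.46 in SNGM and values of −0.21 to −0.52 in the other lines. USP39, which is needed for tri-snRNP joining, was not called, at 0.02.

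**Figure D2:**
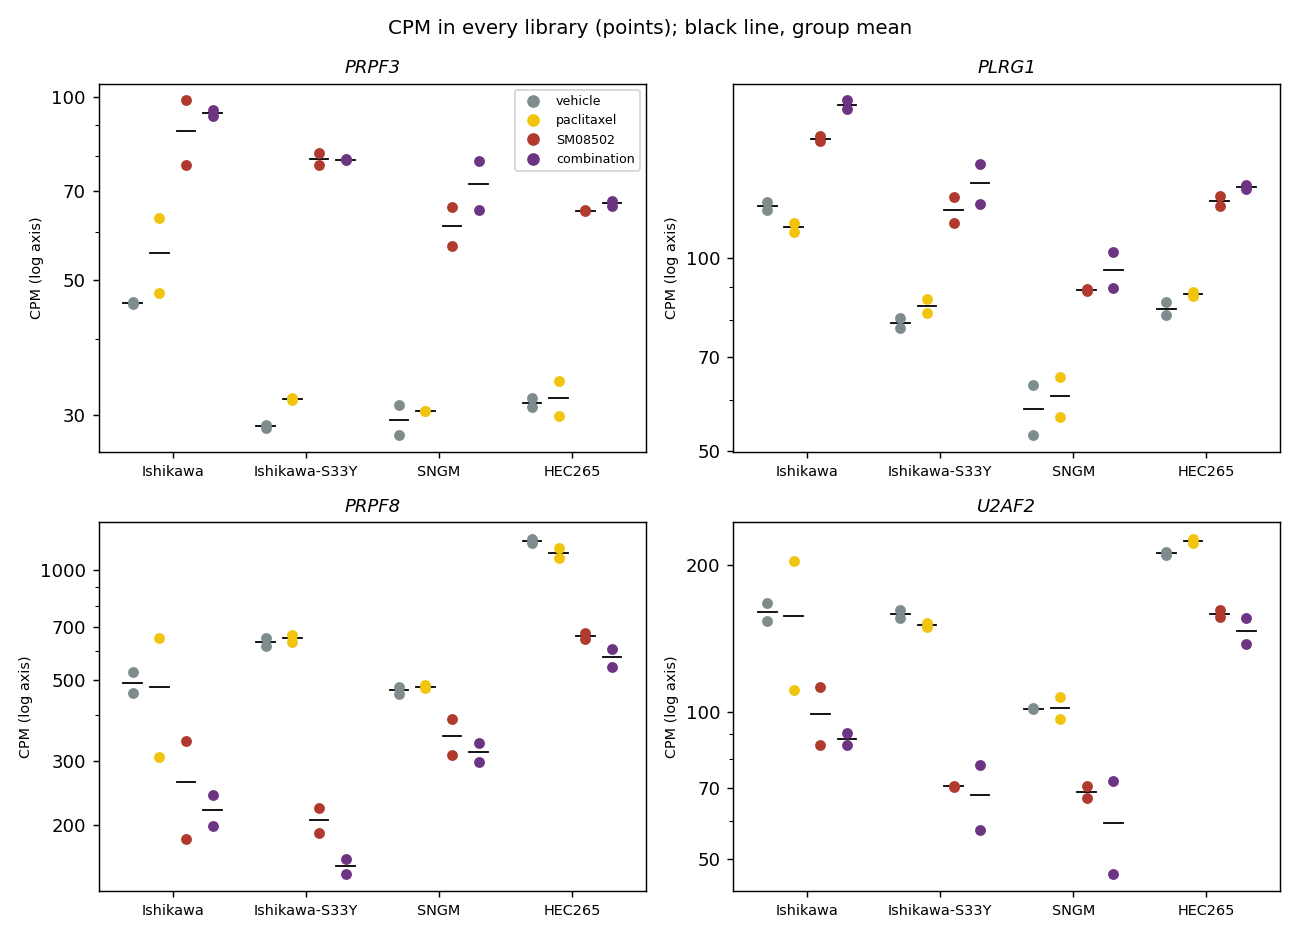
CPM on a log axis in all 32 libraries (points) for PRPF3, PLRG1, PRPF8 and U2AF2, by line and treatment, with the group mean as a black line. SM08502 and combination libraries lie above vehicle for PRPF3 and PLRG1 and below it for PRPF8 and U2AF2, while the paclitaxel libraries of Ishikawa are spread widely for PRPF8 (652 and 307 CPM).

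Of the 6 NTC and related genes 4 rose and none was called lower, where 22.6% of all genes were called higher and 15.8% lower. PLRG1, a WD40 protein of the NTC core, rose by 0.52 (SE 0.05, adjusted p = 4.69e-08) and was called in every line. PLRG1 went from 119 and 123 to 155 and 152 CPM in Ishikawa, from 80.7 and 77.9 to 113 and 125 in Ishikawa-S33Y, from 63.4 and 52.9 to 88.7 and 89.3 in SNGM, and from 85.4 and 81.4 to 121 and 125 in HEC265, with close replicates and no overlap. Its smallest change, 0.35 in Ishikawa, lost its call without vehicle replicate 1 or 2 (adjusted p = 0.103 and 0.0734) or SM08502 replicate 2 (0.0798). BUD31, which enters with the active spliceosome, rose by 0.50 (SE 0.07, adjusted p = 1.65e-05), with values of 0.37 to 0.79 in the 4 lines. CWC22, which recruits the exon junction complex, rose by 0.32 and CDC5L by 0.22. PRPF19, the ubiquitin ligase of the NTC, and AQR, an intron-binding helicase, were not called, at −0.03 and 0.09.

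Among the helicases and second-step factors 3 of 5 rose, where 22.6% of all genes were called higher. SLU7, a second-step factor named here after its values were seen, rose by 0.50 (SE 0.07, adjusted p = 6.59e-06) and was called in 3 lines. DHX38, the helicase that readies the second step, had a mean rise of 0.53 (SE 0.17, adjusted p = 0.0172) that was not called in any single line. DHX38 stood at 42.8 and 40.4 CPM on vehicle and 66.4 and 60.5 on SM08502 in Ishikawa-S33Y, and at 42.5 and 37.3 against 66.2 and 67.1 in HEC265. In Ishikawa its SM08502 libraries were 46.0 and 21.3 CPM around vehicle values of 27.3 and 26.9, and without SM08502 replicate 1 the change there was −0.33 and the mean call was lost (adjusted p = 0.0559). DHX38 overlaps TXNL4B. DHX15, which takes the spliceosome apart, rose by 0.18, and DHX8 and DHX16 were not called, at 0.11 and 0.27.

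The SM08502 change differed between lines in few of the 49 genes, and 3 of those 4 were U1 partners. The moderated F test on the 4 line changes called 4 of the 49 (8.16%), against 12.4% of all genes tested and 14.8% of genes as high as the 49. The 4 were LUC7L, PRPF39, PRPF38B and LUC7L3, and the largest change of each was in Ishikawa-S33Y. LUC7L changed by 0.31 in the Ishikawa line, 0.56 in its S33Y counterpart, −0.29 in SNGM and 0.38 in HEC265 (F = 16.2, adjusted p = 0.00108). Its CPM went from 27.4 and 27.2 to 40.7 and 40.8 in Ishikawa-S33Y and from 33.2 and 38.2 to 29.7 and 28.2 in SNGM, so that the drug libraries lay above vehicle in one line and below it in the other, and the SNGM change itself missed the threshold (adjusted p = 0.0569). PRPF39 changed by 0.38, 0.97, 0.19 and 0.38 in the same order of lines (F = 9.99, adjusted p = 0.00764), and went from 17.6 and 19.4 to 35.4 and 39.1 CPM in Ishikawa-S33Y. With re-centring on the library median its call in the F test was lost (F = 4.95, adjusted p = 0.0631). PRPF38B, a B complex protein, changed by 0.32, 0.70, −0.17 and 0.20 (F = 8.94, adjusted p = 0.0111). LUC7L3 changed by 0.58, 1.09, 0.02 and 0.50 (F = 5.81, adjusted p = 0.0424), a call lost in 25 of the alternatives, at up to 0.152. Without vehicle replicate 1 or SM08502 replicate 2 of Ishikawa-S33Y the PRPF39 call was lost (adjusted p = 0.0535 and 0.0589), and without vehicle replicate 2 of Ishikawa-S33Y that of PRPF38B (0.0501). The count itself went to 2 without either vehicle library or SM08502 replicate 2 of Ishikawa-S33Y, to 8 without either paclitaxel library of Ishikawa, and to 12 without Ishikawa SM08502 replicate 1. In the direct comparison of the SM08502 change in Ishikawa-S33Y with that in Ishikawa, only PRPF39 was called, at 0.59 (adjusted p = 0.0433), where 2.43% of all genes were called. That call was lost in 31 of its 44 alternatives.

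**Figure D3:**
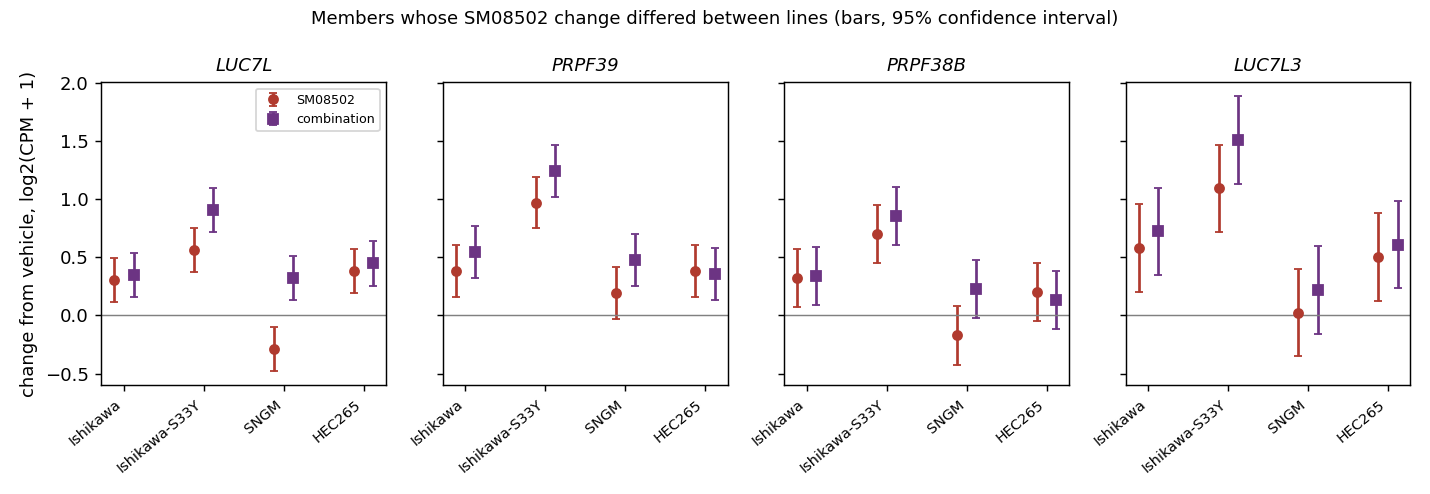
Change from vehicle in log2(CPM + 1), with 95% confidence intervals from the limma fit, for LUC7L, PRPF39, PRPF38B and LUC7L3 in each line, with SM08502 (circles) and the combination (squares). Ishikawa-S33Y has the highest point in each panel, and LUC7L in SNGM is the lowest with SM08502, at −0.29.

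Paclitaxel alone moved none of the 49 genes past the threshold, in any line or in their mean (limma), and limma voom gave 0 as well. At an unadjusted p under 0.05 there were 1 in Ishikawa (SNRPF, 0.41), 0 in Ishikawa-S33Y, 1 in SNGM (LUC7L, −0.23), 0 in HEC265 and 2 in the mean (SNRPD1, 0.13, and SNRPA, −0.10). The shares of all genes at that unadjusted threshold are not given here. At the adjusted threshold, 0.0118%, 0%, 0.0176% and 0.00588% of all genes tested were called in the 4 lines, and 0% in their mean. In Ishikawa the count was 3 without paclitaxel replicate 1. PRPF3 changed by 0.12 and PRPF8 by −0.04 with paclitaxel in the mean of lines, neither called.

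The combination gave a pattern close to that of SM08502 alone, with more calls. It shares its vehicle controls with the SM08502 comparison, so the values are set side by side and not tested for likeness. In the mean of lines 36 genes were called, 30 higher and 6 lower, against 49.1% of all genes tested and 58.5% of those as high as the 49. The median change was 0.26, against 0.04 over all genes. PRPF3 changed by 1.19 with the combination and 1.10 with SM08502, PLRG1 by 0.64 and 0.52, LUC7L3 by 0.76 and 0.55, BUD31 by 0.70 and 0.50, and LUC7L by 0.51 and 0.24. PRPF8 changed by −1.21 and −0.97, U2AF2 by −0.85 and −0.71, SF3B3 by −0.56 and −0.41, and PRPF6 by −0.46 and −0.39. SNRNP200 (−0.35, adjusted p = 0.0284) and PRPF31 (−0.34, adjusted p = 0.00366), both tri-snRNP proteins, were the other 2 genes called lower.

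By line, Ishikawa-S33Y had 26 genes called with the combination, 20 higher and 6 lower, where 24% of all genes were called higher and 18% lower (42% together). HEC265 had 19, 16 higher and 3 lower, against 12.4% and 7.16% (19.5% together). Ishikawa had 17, 14 higher and 3 lower, against 11.6% and 11.2% (22.8% together). SNGM had 15, 13 higher and 2 lower, against 10.8% and 7.54% (18.4% together). In either direction, 48.9% of genes as high as the 49 were called in Ishikawa-S33Y, 27% in HEC265, 27.7% in Ishikawa and 21.9% in SNGM. With the combination the epithelial marker sum in Ishikawa-S33Y was 1544 and 1467 CPM and the leukocyte sum in HEC265 39.5 and 52.0 CPM, and their part was not tested. Re-centring on the library median changed the HEC265 split to 10 and 5. In HEC265 the count was 7 or 10 without vehicle replicate 1 or 2 and 10 or 8 without combination replicate 1 or 2, and in Ishikawa it was 10 without either vehicle library and 8 or 7 without combination replicate 1 or 2. BUD31, LUC7L, PLRG1, PRPF3, PRPF39, PRPF4 and SLU7 were called higher in all 4 lines, and SF3B3 was called lower in all 4. U2AF2 was called lower in 3 lines and PRPF8 in 3. How many of all genes tested were called in as many lines was not counted.

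Tested directly against SM08502 alone, the combination differed in 0 of the 49 genes in Ishikawa, Ishikawa-S33Y and HEC265 and in 1 in SNGM (limma). At an unadjusted p under 0.05 the counts were 0, 7, 0 and 10 for Ishikawa, Ishikawa-S33Y, HEC265 and SNGM. The share of all genes at that unadjusted threshold is not given here, so these counts are not set apart from the background. Limma voom called 0, 0, 0 and 1 in the same order of lines. The gene was LUC7L in SNGM, at 0.61 (adjusted p = 0.0113), where the SM08502 libraries held 29.7 and 28.2 CPM and the combination libraries 42.3 and 47.3. Among all genes tested in SNGM 0.253% were called, and in Ishikawa-S33Y 0.129% (0.0588% higher and 0.0705% lower). In Ishikawa 0% of all genes were called, and in HEC265 0.00588%. The LUC7L call was lost without SM08502 replicate 1 or 2 of SNGM (adjusted p = 0.0927 and 0.251) and without its shallow combination replicate 2 (0.202). Leaving out combination replicate 1 of SNGM or of Ishikawa-S33Y leaves only the shallow replicate 2 of that group (1607038 and 2991041 reads). The counts rose in these fits, but they rest on that single library and are not read as a difference between the treatments. The departure of the combination from the sum of the 2 drug changes was called in 0 of the 49 in the mean of lines (limma). With voom the count was 0 as well. Among all genes tested, limma called 0% for this departure. Of the 49, 1 had an unadjusted p under 0.05.

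Basal levels differed between the lines for most of the 49. On vehicle, the F test called 44 genes (89.8%), against 86.9% of all genes tested and 92.8% of those as high. SNRPD2, LUC7L3, SF3B1, PUF60 and DHX38 were the 5 not called. HEC265 had the highest vehicle mean in 22 genes and Ishikawa in 18, and SNGM had the lowest in 25. The same counts over all genes were not made. The 49 genes together took 0.66% of reads in HEC265 vehicle libraries (mean of 2, SD 0.0042), 0.52% in Ishikawa, 0.48% in Ishikawa-S33Y and 0.43% in SNGM. Re-centring moved the median difference of all genes between HEC265 and Ishikawa from −0.17 to 0.04 and that between SNGM and Ishikawa from −0.13 to 0.01. For HEC265 against Ishikawa, 24.9% of all genes were called higher and 38.3% lower, and 35.4% and 33.3% of those as high. Of the 49, 17 were called higher and 11 lower (median 0.12). Re-centring gave 23 and 6 (0.34), quantile normalization 15 and 11 (−0.01), and the length score as a covariate 5 and 12 (−0.20). Small differences between lines, and the order of HEC265 and Ishikawa, thus depend on the scaling and the model.

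**Figure D4:**
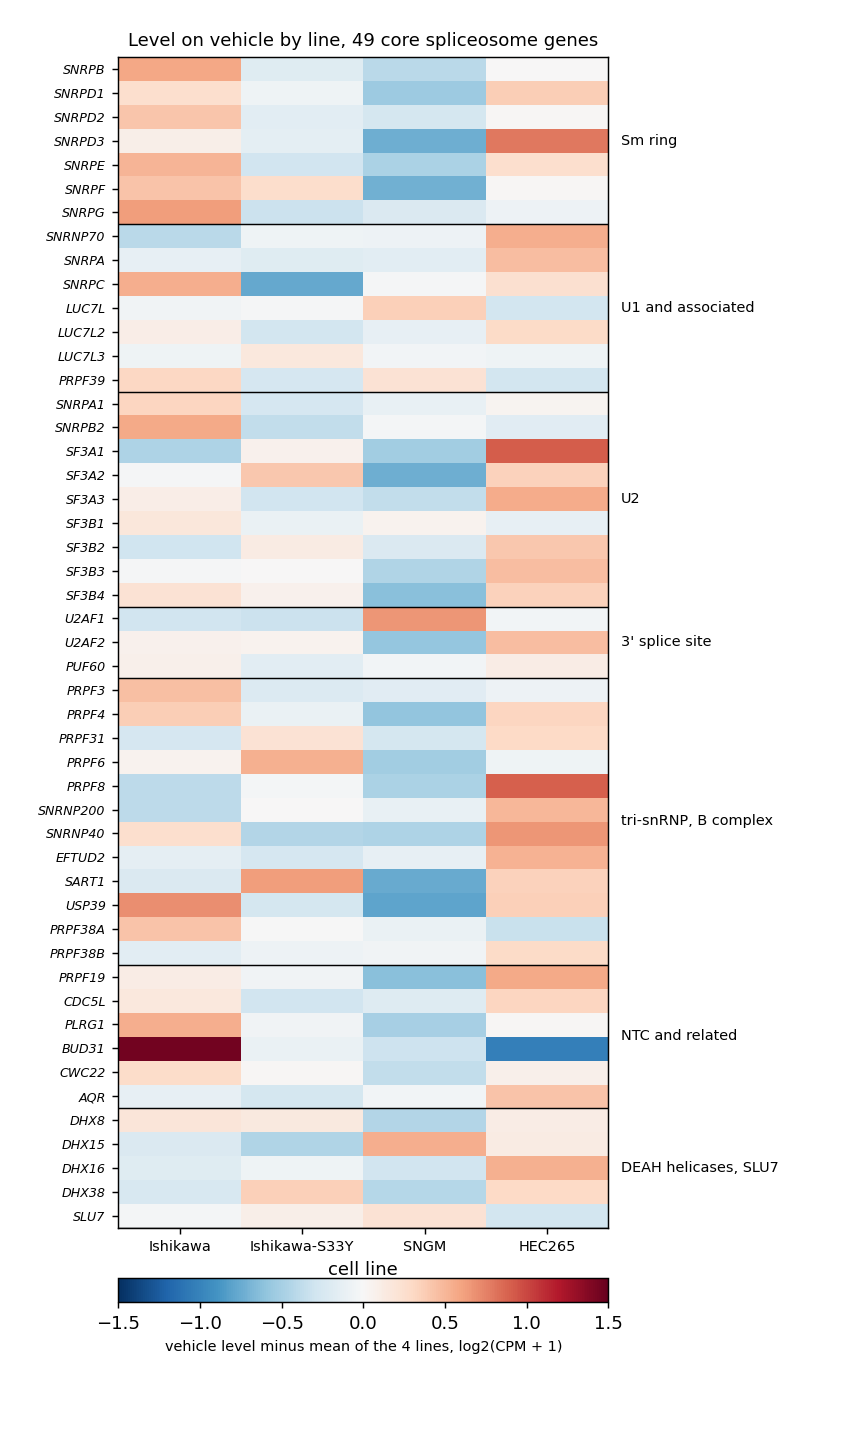
Vehicle level of the 49 genes in each line relative to the gene's own mean over the 4 lines, in log2(CPM + 1), with rows grouped by role. Colours end at −1.5 and 1.5, and BUD31 in Ishikawa reaches the upper end.

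BUD31 and USP39 had the largest F between lines of the 49 genes. BUD31 stood at 135 and 138 CPM in Ishikawa on vehicle, 23.7 and 24.2 in HEC265, 44.7 and 35.1 in SNGM, and 45.2 and 47.2 in Ishikawa-S33Y (F = 100.2, adjusted p = 1.17e-11). Ishikawa was highest and HEC265 lowest, and the 2 lines between them did not differ past the threshold (−0.22, adjusted p = 0.21). BUD31 overlaps PTCD1 and an ATP5MF-PTCD1 readthrough gene. USP39 stood at 154 and 149 CPM in Ishikawa, 119 and 120 in HEC265, 74.7 and 78.9 in Ishikawa-S33Y and 56.1 and 50.2 in SNGM, and every neighbouring pair in this order was called apart. SNRPD3 stood highest in HEC265, at 146 and 158 CPM, and lowest in SNGM, at 54.9 and 50.3, while Ishikawa (101 and 84.4) and Ishikawa-S33Y (77.1 and 81.4) were not called apart (−0.22, adjusted p = 0.138). PRPF8 was highest in HEC265, at 1219 and 1188 CPM, and its 3 other lines were not called apart from each other, with adjusted p of 0.126 to 0.82. PLRG1 was highest in Ishikawa (119 and 123 CPM) and lowest in SNGM (63.4 and 52.9), while HEC265 and Ishikawa-S33Y did not differ past the threshold (0.07, adjusted p = 0.554).

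Ishikawa-S33Y and the wild-type Ishikawa line, of one named background, were compared on vehicle. CTNNB1 genotype cannot be told apart here from RNA input (500 ng against 350 ng) or from how the S33Y line was derived. Depth differed as well, at 20290762 and 23852360 reads in Ishikawa-S33Y against 16218454 and 13026400 in Ishikawa. Marker sums differed too, at 113 and 162 CPM in Ishikawa and 1165 and 1136 in Ishikawa-S33Y for fibroblast or stroma, of which COL1A1 made up 109 and 158 against 1158 and 1131, and at 1479 and 1438 against 3495 and 3427 for epithelium. Their part in the differences was not tested. Of the 49 genes 19 were called, 18 lower in Ishikawa-S33Y and 1 higher, a share of 38.8% against 48.3% of all genes tested and 58.4% of those as high. A lower level was called in 28.2% of all genes and in 38.2% of those as high, and a higher level in 20% and 20.2%. Re-centring gave 17 lower and 4 higher. The 18 lower genes included 4 of the 7 Sm proteins (SNRPB, SNRPD1, SNRPE and SNRPG), SNRPC of U1 (−1.32, from 111 and 108 to 42.6 and 43.7 CPM), SNRPB2 of U2 (−0.93), USP39 (−0.97) and BUD31 (−1.55). SNRPC has 18 numbered pseudogenes in the table, and SNRPB, SNRPE, SNRPG and BUD31 have some too, so their reads could be split between copies. The gene called higher was PRPF31, at 0.47 (adjusted p = 0.0388), and no gene was called higher with no filter on low values, with the replicate block, with the length score as a covariate or with the 2 lines fitted alone. The length score of the vehicle libraries was −3.05 and −2.59 in Ishikawa and −1.46 and −1.61 in Ishikawa-S33Y, and with this score as a covariate 26 genes were called, all lower, with a median of −0.42 against −0.16 without it.

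A further 63 spliceosome genes outside the 49, listed by role with earlier results of these data known, showed a like direction with SM08502. In the mean of lines 38 of the 63 were called (60.3%), 34 higher and 4 lower, with a median change of 0.21, where 38.5% of all genes were called (22.6% higher and 15.8% lower) and 47.4% of those as high as the 49. DDX46, the helicase that admits U2 to the branch point, fell by 1.22 (adjusted p = 6.46e-09), from 86.6 and 95.5 to 51.6 and 39.7 CPM in Ishikawa and from 127 and 124 to 36.7 and 39.7 in HEC265, and was called in all 4 lines. U2SURP (−0.38), SMNDC1 (−0.36) and CWC25 (−0.44) were the other 3 that fell. RBM8A of the exon junction complex rose by 0.71, SF1, which binds the branch point first, by 0.66, SYF2 by 0.60, and XAB2 of the NTC and SNRNP48 of the minor spliceosome each by 0.55. Of 12 further U2 and branch-site genes 3 rose and 3 fell, of 15 further NTC genes 12 rose and 1 fell, and of 10 further tri-snRNP and B complex genes 6 rose. In the LSm ring, which caps U6, 2 of 7 rose, in the minor spliceosome 3 of 7, in the exon junction complex 2 of 4, and among 8 further helicases and linked factors 6.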

How the data were processed

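The authors deposited 1 table of log10 values per gene for 32 libraries. Back-transformed, each library sums to 1000000 CPM and every value is a whole number of reads (within 0.01), so the unit is log10(CPM + 1), with 35238 genes and 4366 at 0 throughout. Per the submitters' processing notes, bcl2fastq, kallisto and STAR were used with GRCh38. Versions, the counting program, the annotation and the strand are not given in the sources used here. Libraries were ribosomal-RNA-depleted total RNA, per the labels' protocols.

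CPM were tested as log2(CPM + 1), a pseudocount of 1 that understates changes of low genes, with limma 3.58.1 in R 4.3.3. A filter of CPM over 1 in 2 or more libraries kept 17011 genes, which were fitted with 1 mean per group over all 32 samples (16 residual degrees of freedom, intensity trend). Tests were two-sided, adjusted by Benjamini-Hochberg over all genes in each of 29 contrasts, and the threshold for a call was an adjusted p of 0.05. The fit was run on simulated counts for SM08502 against vehicle in HEC265, with a fixed spread for all genes. That spread was not taken from these replicates, so the run does not measure error rates in these data. Genes were placed, with 49 positions and 44 promoters matched, by symbol in RefSeq tables for GRCh38.p14.

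The members and gene lists were chosen with earlier results of these data known. Named by rule for SM08502 were the 4 largest called rises and falls in the mean of lines, the largest called rise and fall per line and the largest mean change per role. The rule added the 4 smallest p between lines on vehicle, the 3 smallest for the SM08502 change between lines, any gene called for paclitaxel, combination against SM08502 or additivity, any called in opposite directions in 2 lines, and whole paralogue sets. Other genes named were chosen after their values were seen. Depth ran from 1607038 to 34127623 reads, and low depth widens the error. Alternatives (pseudocount, filter, scaling, replicate block, lines alone, left-out libraries, length covariate, voom) are given in the closing section. Tables of splicing events named in the labels were not analysed here.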

Additional observations from a re-analysis of the deposited data

Results flagged for a closer look

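The SM08502 change differed between the 4 lines for 4 genes by a test of the difference itself, the moderated F test of limma on line-specific changes, with doses that also differ between lines. LUC7L had F = 16.2 (adjusted p = 0.00108), with positive changes in 3 lines and −0.29 in SNGM. PRPF39 had F = 9.99 (adjusted p = 0.00764), with its highest change of 0.97 in Ishikawa-S33Y and its lowest of 0.19 in SNGM. Median re-centring lost that call (F = 4.95, adjusted p = 0.0631). PRPF38B had F = 8.94 (adjusted p = 0.0111), at 0.70 in Ishikawa-S33Y and −0.17 in SNGM. LUC7L3 had F = 5.81 (adjusted p = 0.0424), at 1.09 in Ishikawa-S33Y and 0.02 in SNGM. With 4 of 49 genes, the share of 8.16% is below the 12.4% of all genes tested.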

How the results depend on the processing

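In the mean of lines the SM08502 count stayed at 27 to 35 and the combination count at 30 to 40 over all alternatives. The share of all genes called in each alternative is not given here, so the counts of this section are not set against it. Counts that moved did so as follows. With the transcript length score as a covariate they were 20 (Ishikawa), 17 (SNGM) and 25 (HEC265) for SM08502, 25 (SNGM) and 30 (HEC265) for the combination, 3 (Ishikawa-S33Y) and 2 (SNGM) for the combination against SM08502, 17 for the difference between lines and 9 for Ishikawa-S33Y minus Ishikawa. With the compared lines fitted alone they were 0, 32, 2 and 40 for SM08502 and 1, 37, 8 and 37 for the combination (Ishikawa, Ishikawa-S33Y, SNGM and HEC265), 4 (Ishikawa-S33Y) and 0 (SNGM) for the combination against SM08502, and 0 for Ishikawa-S33Y minus Ishikawa. Without replicates 2 of Ishikawa paclitaxel and SM08502 they were 6 for paclitaxel and 4 for the combination against SM08502 in Ishikawa, 5 for the departure from additivity, 12 for the difference between lines, 30 for the basal contrast of Ishikawa-S33Y with Ishikawa and 3 for Ishikawa-S33Y minus Ishikawa. Without the 2 shallow libraries SM08502 in Ishikawa gave 13 and the combination against SM08502 in SNGM 0. Limma voom on recovered reads, added after the data were seen, gave 10 for SM08502 in SNGM. Quantile normalization gave 7 for the difference between lines. With no filter the combination against SM08502 gave 1 in Ishikawa-S33Y, and with re-centring 0 in SNGM. Ishikawa-S33Y minus Ishikawa gave 0 with a pseudocount of 0.1, re-centring or quantile normalization. The cause was not tested.

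Leaving out 1 library at a time gave 2 to 16 (Ishikawa), 16 to 22 (Ishikawa-S33Y), 3 to 10 (SNGM) and 3 to 19 (HEC265) for SM08502, 7 to 22, 20 to 29, 10 to 19 and 7 to 23 for the combination in the same order, 0 to 3 for paclitaxel in Ishikawa, 0 to 2 (Ishikawa-S33Y) and 0 to 12 (SNGM) for the combination against SM08502, 0 to 1 for additivity, 2 to 12 for the difference between lines and 0 to 4 for Ishikawa-S33Y minus Ishikawa. A lone sample left in a group was assumed to vary like the other groups. For the combination against SM08502, the upper ends came from fits that left only the shallow combination library in its group. Changes of single genes were followed over the alternatives only for part of the named genes. Among these, signs turned, without a call, for the SM08502 change of 4 genes. LUC7L3 in SNGM ranged from −0.20 without SM08502 replicate 1, over −0.13 without vehicle replicate 1, to 0.25. In Ishikawa SF3A2 ranged from −0.38 to 0.45, DHX38 from −0.33 to 0.74 and LUC7L2 from −0.13 to 0.23, each lowest without SM08502 replicate 1. LUC7L2 was at −0.01 without vehicle replicate 2.

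Same-numbered replicates did not all deviate together (correlations of −0.54 to 0.61 in SNGM and −0.43 to 0.80 in Ishikawa), so the numbers were not taken as pairs. With the replicate block the SM08502 count was 30 and the combination count 36 in the mean of lines, 9, 20, 7 and 16 for SM08502 by line, and 0 for Ishikawa-S33Y minus Ishikawa. The edgeR and DESeq2 alternatives were not run, since the deposited values are logarithms. At 1607038 reads the shallow SNGM library limits its combination values.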

Other observations

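Outside the 49 genes, 3 of the 63 further spliceosome genes had an SM08502 change that differed between lines (limma F test), a share of 4.76% against 12.4% of all genes tested. They were chosen here after their values were seen. LSM8, of the U6 ring, changed by −0.61 in HEC265, where it went from 24.5 and 25.9 to 15.9 and 16.5 CPM, and by 0.08 to 0.20 in the other 3 lines, none of which was called (F = 16.2, adjusted p = 0.00108). SNRNP48, a protein of the minor spliceosome, was called higher in Ishikawa-S33Y (0.66), SNGM (0.77) and HEC265 (0.72) and changed by 0.04 in Ishikawa without a call (F = 13.1, adjusted p = 0.00257). RBM25, a U1-linked factor, changed by 0.84 in Ishikawa-S33Y, where it went from 107 and 102 to 188 and 188 CPM, and by −0.23 in SNGM, which was not called (F = 7.05, adjusted p = 0.0236). With the combination 43 of the 63 were called in the mean of lines, 39 higher and 4 lower, against 49.1% of all genes (29% higher and 20.1% lower).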
